A study of Mus musculus with 26 samples.

Results

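The genes described here encode 10 subunits of the ionotropic glutamate receptors: Gria1, Gria2, Gria3 and Gria4 of the AMPA receptors, Grin1, Grin2a, Grin2b and Grin3a of the NMDA receptors, and Grik2 and Grik3 of the kainate receptors. They were taken by gene symbol and are 10 of the 30406 genes listed in every library. Their RNA was read by single-nucleus RNA sequencing of the prospective S1 cortex of male mouse embryos at E15.5, in 8 libraries. The mothers had received an injection of saline or of Poly(I:C) at E12.5, and Poly(I:C), a mimic of viral RNA, evokes maternal immune activation (MIA). The embryos were wild type or Csf1r-/- (Csf1r-null), on a C57Bl/6N background. Csf1r encodes a receptor that microglia need in order to develop, and the -/- genotype is carried by the whole embryo and not by microglia alone. The 4 groups, wild-type saline, wild-type MIA, Csf1r-null saline and Csf1r-null MIA, had 2 libraries each. A library held the nuclei of very few embryos, and wild-type and Csf1r-null embryos were littermates from a small number of injected dams. The labels do not tie a library to its dam, so a difference between litters and an effect of the injection cannot be told apart. The p-values between groups below rest on the spread between libraries of a group, or on what remains of it where a block was used. Those between cell classes rest on the spread that remains once differences between libraries are taken out.

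Glutamate opens 3 families of ion channels that differ in speed and permeability. AMPA receptors carry most of the fast excitatory current, NMDA receptors admit calcium when glutamate and depolarization coincide, and kainate receptors tune excitability and transmitter release. The GluA2 subunit, encoded by Gria2, makes AMPA receptors nearly impermeable to calcium once its messenger RNA has been edited at a codon of the pore, the Q/R site. Every conventional NMDA receptor contains GluN1 (Grin1), joined by GluN2 subunits such as GluN2B (Grin2b), which prevails before birth, or GluN2A (Grin2a), which gains ground after birth. In the embryonic cortex glutamate reaches progenitors and migrating neurons before most synapses form.

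The codon of the Q/R site is shown for the 4 AMPA receptor genes because the comparisons below turn on how much of the AMPA receptor RNA was Gria2. The stretches are coding sequence of GENCODE vM21 (GRCm38, which the submitters' notes call mm10), 45 bases each and within a single exon, in the sense of the gene, with the Q/R codon in capitals.
Gria1, exon 11, chr11:57243073-57243117 (+): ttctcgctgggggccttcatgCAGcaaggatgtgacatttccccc
Gria2, exon 11, chr3:80706890-80706934 (-): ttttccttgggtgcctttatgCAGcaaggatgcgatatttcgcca
Gria3, exon 11, chrX:41610244-41610288 (+): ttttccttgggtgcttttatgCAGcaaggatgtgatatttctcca
Gria4, exon 12, chr9:4464116-4464160 (-): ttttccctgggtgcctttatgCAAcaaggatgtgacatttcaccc
All 4 genomic codons encode glutamine. Gria2 matched Gria3 at 42 of the 45 bases and Gria1 at 36. Counts per gene do not show whether a transcript was edited, so editing was not measured.

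Nuclei with at least 500 UMIs (unique molecular identifiers, which count captured RNA molecules) and 200 genes were kept, and 1917 called doublets were removed, which left 41539 nuclei. Libraries held 9897721 to 17605575 UMIs in nuclei, with a median of 1469 to 2953.5 UMIs per nucleus, and no pair of libraries shared more than 14 barcodes. The nuclei were clustered without the 10 genes, the other glutamate genes named below and the genes of the study's own result lists, so that the classes were not drawn from the receptor levels themselves. Genes that move with the receptor genes could still shape the classes, and the tests between classes use the same nuclei. The 8 classes with enough nuclei in every library were named from their markers: apical progenitors (2868 nuclei), dividing progenitors (3094), intermediate progenitors (3105), migrating neurons (10726), callosal projection neurons (4805), subcerebral projection neurons (3602), corticothalamic projection neurons (6378) and interneurons of medial ganglionic eminence type (MGE-type, 2249). Of the corticothalamic nuclei, 4215 came from a cluster named by its score over the marker list. None of its top 10 genes was a marker of that list, while all 7 markers were more than 2-fold above the other nuclei. The other clusters of these classes were named from markers among their top 10 genes. Of the dividing nuclei, 1792 came from a cluster named from Top2a and Kif11 that scored highest on the apical list. All 8 apical markers were more than 2-fold above the other nuclei there, so the dividing and apical classes share markers. Levels are CPM, the UMIs of a gene per 1000000 UMIs of its class in 1 library.

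In 2 libraries the microglia went against the label. The library labelled wild-type MIA 2 held 0 microglia nuclei and 0 Csf1r UMIs, against 6 to 9 nuclei and 11 to 23 UMIs in the other 3 wild-type libraries. The library labelled Csf1r-null saline 2 held 5 microglia nuclei and 10 Csf1r UMIs, against 0 nuclei and 1 to 4 UMIs in the other 3 Csf1r-null libraries. Wild-type saline 1 held 706 of the 840 nuclei with striatal markers, 15.6% of its nuclei, against at most 0.863% elsewhere. For differences between groups with an unadjusted p under 0.05 the range over the fits that leave out 1 library at a time is given beside the value, or the fits at its ends are named. Fewer nuclei of a kind within a class and less RNA per nucleus cannot be told apart in these sums.

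The receptor genes differed widely between cell classes. Of the 10 genes, 8 passed the filter on low counts in the comparison of classes, and of their 224 differences between pairs of classes 197 passed the test (edgeR quasi-likelihood on sums per library and class, library as a block, Benjamini-Hochberg adjusted p under 0.05). Over all genes tested, 57.4% of such differences passed. Grin2a and Grin3a were too low for the test. The highest of the 8 classes was the MGE-type interneurons for Gria1, Gria4, Grin1, Grin3a and Grik2, the corticothalamic neurons for Gria3, Grin2b and Grik3, and the callosal neurons for Gria2 and Grin2a. Every adjusted p between classes below is from this edgeR fit.

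**Figure D1:**
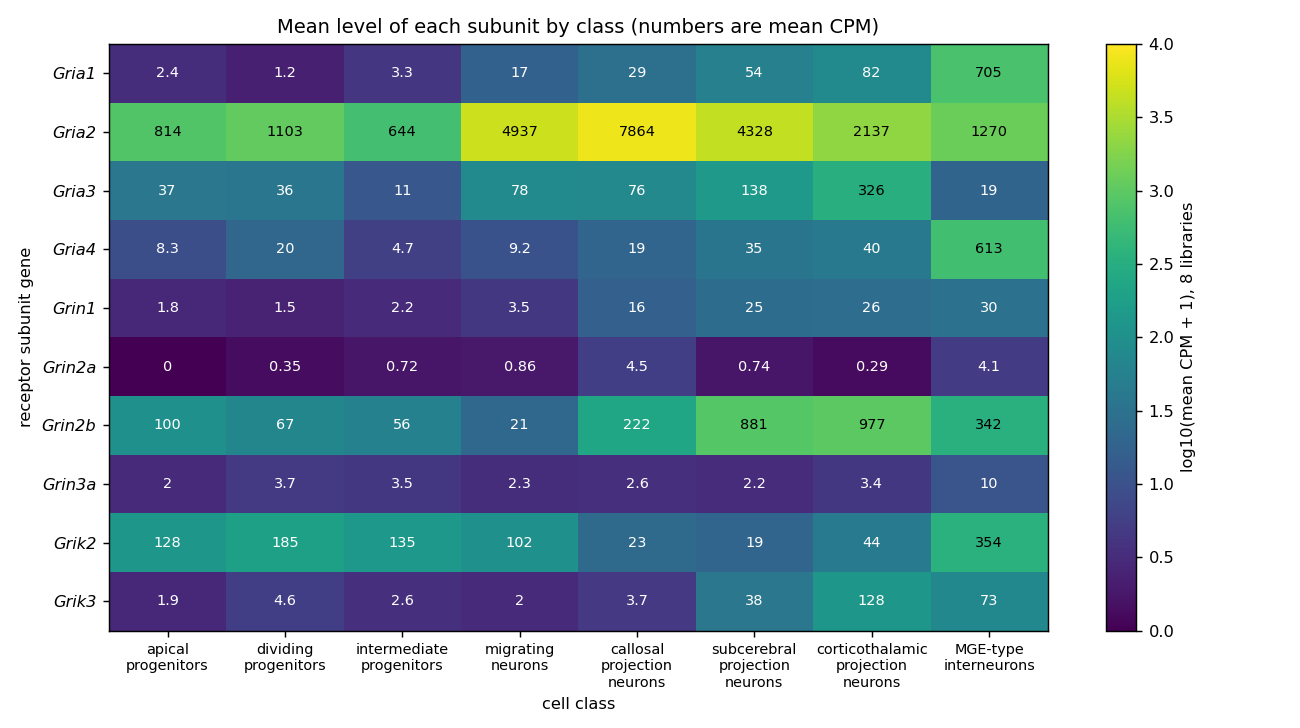
Mean level of the 10 subunit genes (rows) in the 8 cell classes (columns), as CPM averaged over 8 libraries and printed in each cell, with color on a log scale. Gria2 is at 644 CPM or more in every class, and Gria1 and Gria4 stand out in MGE-type interneurons at 705 and 613 CPM. Grin2b and Grik3 are highest in corticothalamic neurons at 977 and 128 CPM. For Grin2b the difference from subcerebral neurons at 881 CPM did not pass the test.

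Among the AMPA receptor genes, Gria2 was highest in callosal neurons. It stood at 7864 ± 1256 CPM there (SD, n = 8 libraries), with 6073 in the lowest library, a median of 7881 and 9394 in the highest. Migrating neurons held 4937 ± 1090.5 CPM of Gria2, subcerebral neurons 4328 ± 682, corticothalamic neurons 2137 ± 349 and MGE-type interneurons 1269.6 ± 256. Progenitors held less, with 1103 ± 254 CPM in dividing, 814 ± 109 in apical and 644 ± 129 in intermediate progenitors. All 28 pairs of classes differed in Gria2, among them migrating over subcerebral neurons by only 0.15 ± 0.053 on the log2 scale (SE, adjusted p = 0.0146). Migrating neurons exceeded intermediate progenitors by 3.14 ± 0.061 (log2, adjusted p = 3.15e-62), and the libraries of these classes did not overlap. Subcerebral neurons held more Gria2 than corticothalamic neurons, by 0.98 ± 0.054 (log2, adjusted p = 9.92e-29).

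Gria1, which encodes GluA1, was highest in interneurons. It reached 705 ± 162 CPM in MGE-type interneurons, with 533 in the lowest library, a median of 672 and 975 in the highest. Corticothalamic neurons, next in order, held 82.5 ± 19.5 CPM, between 58.2 and 112. The ranges lay far apart, and the log2 difference of Gria1 was 2.97 ± 0.074 (adjusted p = 1.68e-54), a fold of 8.54 between the means. Subcerebral neurons followed at 53.6 ± 8.77 CPM, callosal neurons at 28.5 ± 8.98 and migrating neurons at 16.5 ± 3.17. The 3 progenitor classes held 1.23 to 3.31 CPM of Gria1, from 8 to 18 UMIs each over all libraries, and the apical class did not differ from the dividing (adjusted p = 0.337) or the intermediate class (adjusted p = 0.51).

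Gria4, which encodes GluA4, had a still larger step. MGE-type interneurons held 613 ± 47.0 CPM in a narrow range, from 546 in the lowest library through a median of 609 to 682 in the highest. Corticothalamic neurons held 39.7 ± 6.40 CPM of Gria4, with no overlap of libraries (log2 difference 3.84 ± 0.079, adjusted p = 5.71e-61, fold 15.4). They did not differ from subcerebral neurons at 35.1 ± 10.1 CPM (adjusted p = 0.108). Nor did dividing progenitors at 19.8 ± 5.38 and callosal neurons at 19.0 ± 4.39 CPM (adjusted p = 0.441), and the remaining classes held 4.67 to 9.23 CPM of Gria4.

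Gria3, an X-linked gene that encodes GluA3, followed another order. Corticothalamic neurons held 326 ± 56.8 CPM, with 248 in the lowest library, a median of 316 and 413 in the highest. Subcerebral neurons held 138 ± 19.4 CPM, and no library of them reached the corticothalamic range (log2 difference 1.29 ± 0.081, adjusted p = 2.37e-25). Migrating neurons at 78.3 ± 20.3 and callosal neurons at 75.6 ± 15.2 CPM of Gria3 did not differ (adjusted p = 0.577). Apical progenitors at 37.4 ± 21.1 and dividing progenitors at 35.5 ± 10.1 did not differ either (adjusted p = 0.954). MGE-type interneurons, the highest class for Gria1 and Gria4, held 18.7 ± 9.65 CPM of Gria3, and corticothalamic neurons exceeded them by 4.30 ± 0.15 on the log2 scale (adjusted p = 1.47e-43). Intermediate progenitors were lowest, at 11.04 ± 1.74 CPM.

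**Figure D2:**
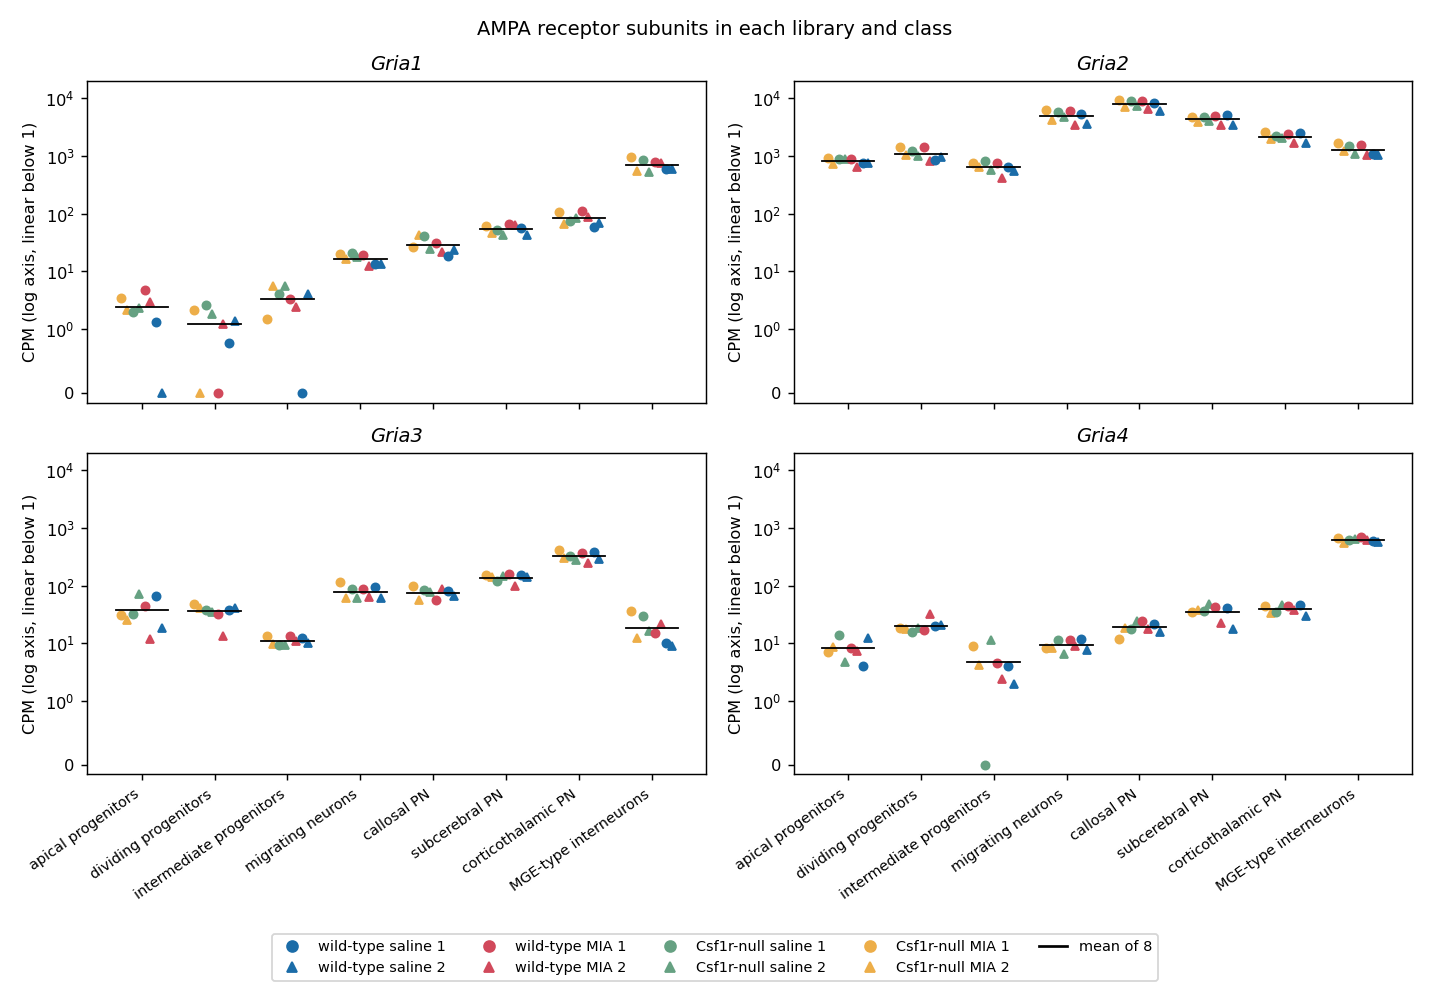
CPM of Gria1, Gria2, Gria3 and Gria4 in each of the 8 libraries (points, colored by group, with a marker for each replicate number) by cell class (PN, projection neurons), on a log axis, with a line at the mean. In MGE-type interneurons every library is at 533 CPM or more for Gria1 and 546 or more for Gria4, and in corticothalamic neurons none exceeds 112 for Gria1 or 46.9 for Gria4.

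Gria2 thus had a smaller share of the AMPA receptor UMIs in interneurons than in the excitatory lineage. Gria2 gave 98.4% ± 0.202 of the UMIs of the 4 genes in callosal neurons, 97.9% ± 0.197 in migrating neurons and 94.99% ± 0.488 in subcerebral neurons (SD, n = 8). In corticothalamic neurons the share of Gria2 was 82.6% ± 0.926, with Gria3 at 12.6% ± 0.810. In MGE-type interneurons it was 48.5% ± 2.76, between 43.4% and 52.2% in the 8 libraries, with Gria1 at 26.9% ± 2.61 and Gria4 at 23.9% ± 2.91. These shares are descriptions with no test, and UMIs in nuclei can rise with the length of a gene. Gria2 spans 121 kb and has 15.55 kb of annotated exons, against 319 and 6.04 kb for Gria1 and 378 and 6.30 kb for Gria4. Per kb of exons the share of Gria2 in interneurons was 27.5%, and per kb of span it was 72.9%. In corticothalamic neurons the same shares were 72.2% and 92.0%. Interneurons had the lower share of Gria2 on each scale, while its rank within the interneurons depended on the scale.

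Among the NMDA receptor genes, Grin2b gave most of the UMIs and was highest in deep-layer neurons. Corticothalamic neurons held 977 ± 145 CPM, with 779.7 in the lowest library, a median of 967 and 1158 in the highest. Subcerebral neurons held 881 ± 119.8 CPM, and the difference did not pass the test (log2 0.19 ± 0.083, adjusted p = 0.0771). MGE-type interneurons followed at 342 ± 111 CPM of Grin2b and callosal neurons at 222 ± 62.3. Apical progenitors held 100.2 ± 29.8 CPM, more than dividing progenitors at 66.6 ± 24.7 (adjusted p = 0.0434) and intermediate progenitors at 56.2 ± 16.3 (adjusted p = 0.000799).

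Migrating neurons held the least Grin2b of the 8 classes. Their level was 20.5 ± 10.3 CPM, from 7.35 in the lowest library to 39.7 in the highest, below every library of the apical progenitors (62.0 to 152 CPM). Apical progenitors exceeded migrating neurons by 1.94 ± 0.18 (log2, adjusted p = 4.96e-17), and corticothalamic neurons exceeded them by 5.67 ± 0.12 (log2, adjusted p = 1.20e-60). Grin2b was thus lower in migrating neurons than in progenitors and in projection neurons, whereas Gria2 was already high in migrating neurons.

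Grin1, which encodes the subunit that NMDA receptors share, gave few UMIs in each of the 8 classes. MGE-type interneurons held 29.5 ± 11.7 CPM, corticothalamic neurons 26.1 ± 4.05 and subcerebral neurons 25.0 ± 7.79. Neighbors in that order did not differ (adjusted p = 0.937 and 0.707). Callosal neurons held 15.8 ± 6.05 CPM of Grin1, above migrating neurons at 3.52 ± 0.529 (log2 difference 2.15 ± 0.20, adjusted p = 4.03e-16), and the progenitor classes held 1.54 to 2.15 CPM, from 9 to 11 UMIs each. A gene named Grin1os lies over Grin1 on the other strand, as do Gm14329, Gm22892, Gm14330 and Gm26653 over Grin2b. Whether the counting used strand is not given in the sources used here. Genes on the same strand lie over Gria2, Gria3, Gria4, Grin3a, Grik2 and Grik3.

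Of the NMDA receptor UMIs in corticothalamic neurons, Grin2b gave 97.0% ± 0.236. Grin2b spans 460.3 kb and Grin1 28.0 kb, and per kb of span the shares there were 69.1% for Grin2b and 30.3% for Grin1. In MGE-type interneurons the share per kb of span was higher for Grin1 (56.6%) than for Grin2b (39.9%), while of the UMIs Grin1 gave 7.87% ± 2.74 and Grin2b 88.5% ± 2.76. The share per kb of span was also higher for Grin1 in migrating neurons (68.0% against 24.1%) and callosal neurons (52.7% against 45.0%), and lower in the 5 other classes. Per kb of exons Grin2b had the larger share in all 8 classes. There Grin2b and Grin1 were at 77.0% and 17.0% in MGE-type interneurons, 58.0% and 25.5% in migrating neurons and 81.0% and 14.8% in callosal neurons. Which scale applies depends on whether intronic reads were counted, which is not given in the sources used here.

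Grin2a and Grin3a were close to the limit of detection. Grin2a gave 0 UMIs of 4735875 in apical progenitors, which allows up to 0.633 CPM, counting error only. Callosal neurons held 4.53 ± 3.54 CPM from 64 UMIs, spread from 1.21 CPM in the lowest library to 9.23 in the highest. MGE-type interneurons held 4.06 ± 2.27 CPM of Grin2a from 17 UMIs, and the difference between these classes was not tested. Grin3a, whose GluN3A subunit lowers the calcium permeability of NMDA receptors, held 10.5 ± 6.62 CPM in MGE-type interneurons (48 UMIs) and 1.97 to 3.72 CPM in the 7 other classes.

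The kainate receptor genes Grik2 and Grik3 had different orders within the excitatory lineage. Grik2 was highest in MGE-type interneurons, at 354 ± 64.5 CPM, with 289 in the lowest library, a median of 339 and 438 in the highest. It was also found before and during migration, at 185 ± 53.0 CPM in dividing, 135 ± 29.0 in intermediate and 128 ± 26.7 in apical progenitors and 102.01 ± 20.1 in migrating neurons. Projection neurons held less Grik2, with 44.1 ± 7.44 CPM in corticothalamic, 23.4 ± 6.12 in callosal and 19.2 ± 6.42 in subcerebral neurons. Migrating neurons exceeded callosal neurons by 2.14 ± 0.11 (log2, adjusted p = 2.43e-32), and the libraries did not overlap. Apical progenitors did not differ in Grik2 from intermediate progenitors (adjusted p = 0.145) or migrating neurons (adjusted p = 0.973), nor callosal from subcerebral neurons (adjusted p = 0.33).

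Grik3 was high in deep-layer neurons and interneurons among these 8 classes. Corticothalamic neurons held 128 ± 27.1 CPM, from 94.3 through a median of 128 to 164. MGE-type interneurons held 72.5 ± 14.5 CPM of Grik3 and subcerebral neurons 37.7 ± 7.17. Each step passed the test without overlap between libraries (log2 differences 0.94 ± 0.11 and 0.88 ± 0.14, adjusted p = 3.38e-12 and 5.16e-08). The 5 other classes held 1.91 to 4.58 CPM of Grik3, and no neighbors in their order differed. Of the UMIs of both genes, Grik3 gave 74.2% ± 2.45 in corticothalamic and 66.9% ± 5.86 in subcerebral neurons, against 13.2% ± 4.94 in callosal and 2.02% ± 0.793 in migrating neurons. Per kb of exons and of span the share of Grik3 in corticothalamic neurons was 81.1% and 90.0%.

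**Figure D3:**
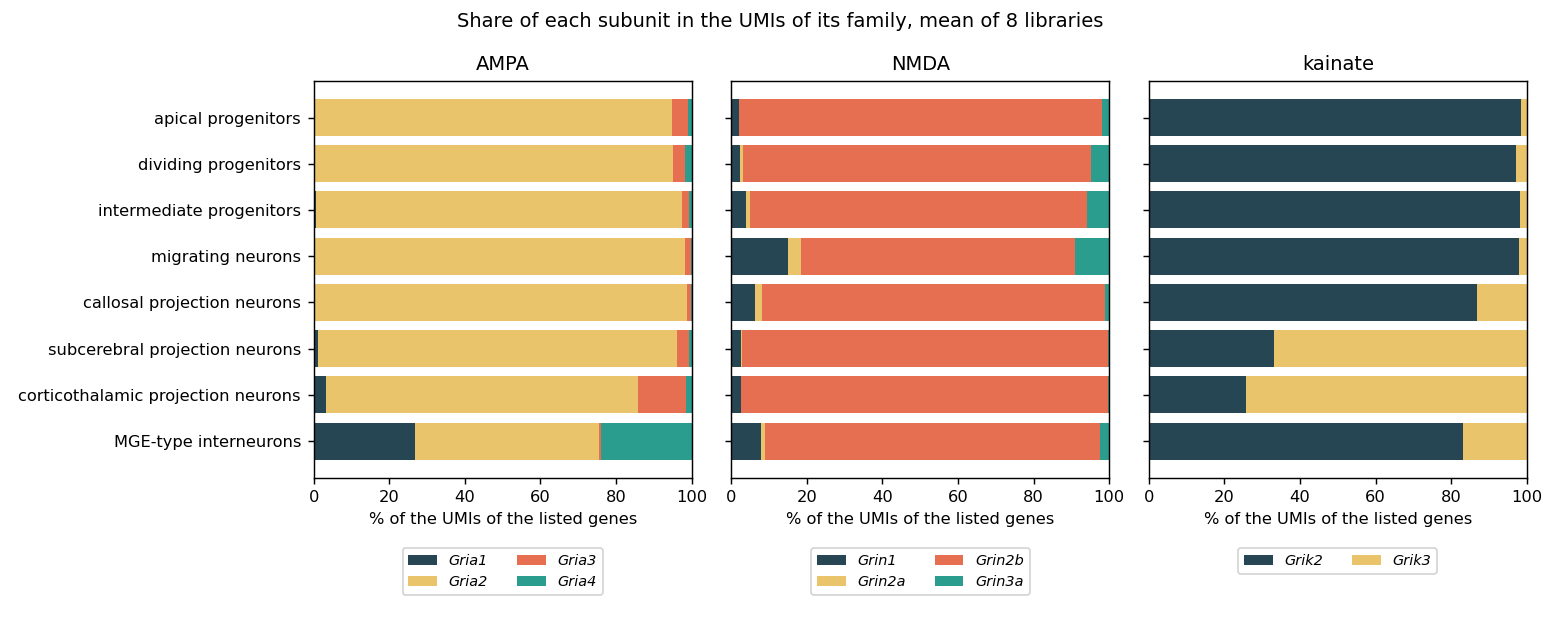
Share of each subunit in the UMIs of its family (percent, mean of 8 libraries) in the 8 classes, for the AMPA, NMDA and kainate receptor genes described here. Gria2 is at 48.5% in MGE-type interneurons, Grin2b leads the NMDA receptor genes in every class by UMIs, and the kainate receptor genes turn from Grik2 to Grik3 in subcerebral and corticothalamic neurons (66.9% and 74.2% Grik3).

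Free RNA in droplets can give a class UMIs of genes that it does not express. It was measured in the replicate 1 libraries, whose files list every barcode, over barcodes with 1 to 100 UMIs. These held 49.9 CPM of Gria1, 1101 of Gria2, 146 of Grin2b, 35.1 of Grik2 and 30.3 of Grik3 on average. In the same libraries the level in apical progenitors was 5.75% of the level in those barcodes for Gria1 and 7.17% for Grik3, but 79.3% for Gria2, 71.8% for Grin2b and 378% for Grik2. Gria3 in that class was at 59.5%, Gria4 at 40.7% and Grin1 at 20.6%. Gria2 in intermediate progenitors, its lowest class, was at 67.2%, also below the level in those barcodes. Over the 3 progenitor classes Gria1 and Grik3 were at 2.73% to 20.5% and Grin1 at 9.36% to 20.6%, and their few UMIs there are not read as expression. Nor is Grik3 in callosal neurons (14.3%) and migrating neurons (7.88%), and its share of the kainate receptor UMIs there has the same limit. Gria3 and Gria4 in intermediate progenitors (16.7% and 21.5%) and Grin2b in migrating neurons (17.7%) were also well below the level in those barcodes. The part of free RNA in the levels of the other genes and classes was not tested.

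For each gene, the 3 genes with the most similar class means were sought among genes reaching 10 CPM in a class, by Pearson's r of log2(CPM + 1) over the 8 classes, a description with no test. Gria1 was nearest to Dip2c, Magi2 and Ap3m2 (r = 0.993, 0.992 and 0.988), and Gria2 to Gm15594, Cttnbp2 and Osbpl6 (r = 0.988, 0.987 and 0.982). Gria3 was nearest to Lpcat2, Slc6a17 and Pcdh9 (r = 0.962, 0.957 and 0.955), and Gria4 to Gm31305, Ccdc88a and Fgd3 (r = 0.972, 0.970 and 0.968). For Grin1 they were Mapt, Sptbn4 and Gm42303 (r = 0.993, 0.988 and 0.988), and for Grin2b Shisa5, Chchd6 and Lrrfip1 (r = 0.981, 0.979 and 0.974). For Grik2 they were E130308A19Rik, Tmem196 and Zfp626 (r = 0.967, 0.966 and 0.964), and for Grik3 Rftn1, Grip2 and Brinp1 (r = 0.984, 0.978 and 0.977). The low Grin2a gave Ppp2r5e, Fam19a2 and Elovl2 (r = 0.935, 0.929 and 0.928), and the low Grin3a Lhfpl3, C530008M17Rik and Cacna2d2 (r = 0.968, 0.950 and 0.950). Mapt encodes the microtubule protein tau, and Grip2 a scaffold that binds AMPA receptors.

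The partners of the receptors were read from lists of whole families, between MGE-type interneurons and corticothalamic neurons. There 46% of all genes tested differed, and of the 8 receptor genes tested 3 were higher and 4 lower in the interneurons, beside 23% of all genes in each direction. Of 15 auxiliary subunits of AMPA and kainate receptors, which steer their traffic and gating, 4 were higher and 8 lower. Cacng2 (stargazin) held 142 CPM in interneurons and 17.2 in corticothalamic neurons, and its relative Cacng3 72.1 and 0.181. Neto1, an auxiliary subunit of kainate receptors, held 194 and 4.40 CPM, while Neto2 held 100.4 and 291. Cnih3, a cornichon that slows AMPA receptors, was lower in interneurons, at 4.45 against 101 CPM.

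Of the other ionotropic receptor genes 3 of 8 passed the filter, with 2 higher and 1 lower in the interneurons. Grik1, another kainate receptor subunit, held 81.2 CPM in interneurons against 0.669 in corticothalamic neurons, while Grik5 varied little, from 78.8 to 118 CPM over the 8 classes. Of the metabotropic receptor genes 2 of 3 were higher and 1 lower, with Grm5 at 266 against 65.9 CPM. Of 19 scaffold genes 5 were higher and 9 lower, with Dlgap1 at 651 against 109 CPM. Of 5 transporter genes 1 was higher and 3 lower, among them Slc17a7, which loads glutamate into vesicles (4.55 against 186 CPM). Of 3 RNA editing enzymes 1 was higher and 1 lower. Adarb1, whose product edits the Q/R site, was the higher one, at 32.8 against 23.0 CPM (log2 difference 0.41 ± 0.17, adjusted p = 0.0408).

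Without a block for the replicate number, no receptor gene passed the test in any comparison of groups. With that block 1 gene passed in 1 class, as given below. With 2 libraries per group, MIA was compared with saline in wild type and in Csf1r-null embryos, the difference between these responses was tested as an interaction, and the genotypes were compared after saline and after MIA. Of the 80 combinations of gene and class, 52 passed the filter, with 9 of the 10 genes (not Grin3a). Of these 52, edgeR called 0 in each of the 5 comparisons, as of all 79025 combinations over all genes (0% called). At an unadjusted p under 0.05 there were 5 of 52 for MIA in wild type, beside 6.31% of all combinations. The counts were 0 for MIA in Csf1r-null (all combinations, 1.29%), 2 for the interaction (2.91%), 2 for genotype after saline (5.91%) and 1 for genotype after MIA (1.17%). DESeq2 also called 0 of the 52 in each comparison, beside 0.086% of all combinations for MIA in wild type, 0.0519% for genotype after saline and 0% in the 3 others. Groups did not overlap in 16 of 52 for MIA in wild type (all combinations, 37.1%), 7 for MIA in Csf1r-null (22.9%), 22 for genotype after saline (35.6%) and 6 for genotype after MIA (22.9%). The median log2 difference over the 52 was 0.15 for MIA in wild type and -0.03 in Csf1r-null, 0.18 for the interaction, 0.20 for genotype after saline and 0.02 for genotype after MIA. Over all combinations the medians were between 0.00 and 0.01. Over the partner lists they ranged from -0.03 to 0.22 for MIA in wild type and from 0.07 to 0.53 for the interaction. For genotype after saline they ranged from 0.08 to 0.29, so medians of this size were not particular to the receptor genes. The comparisons share libraries, so these values are not separate evidence.

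**Figure D4:**
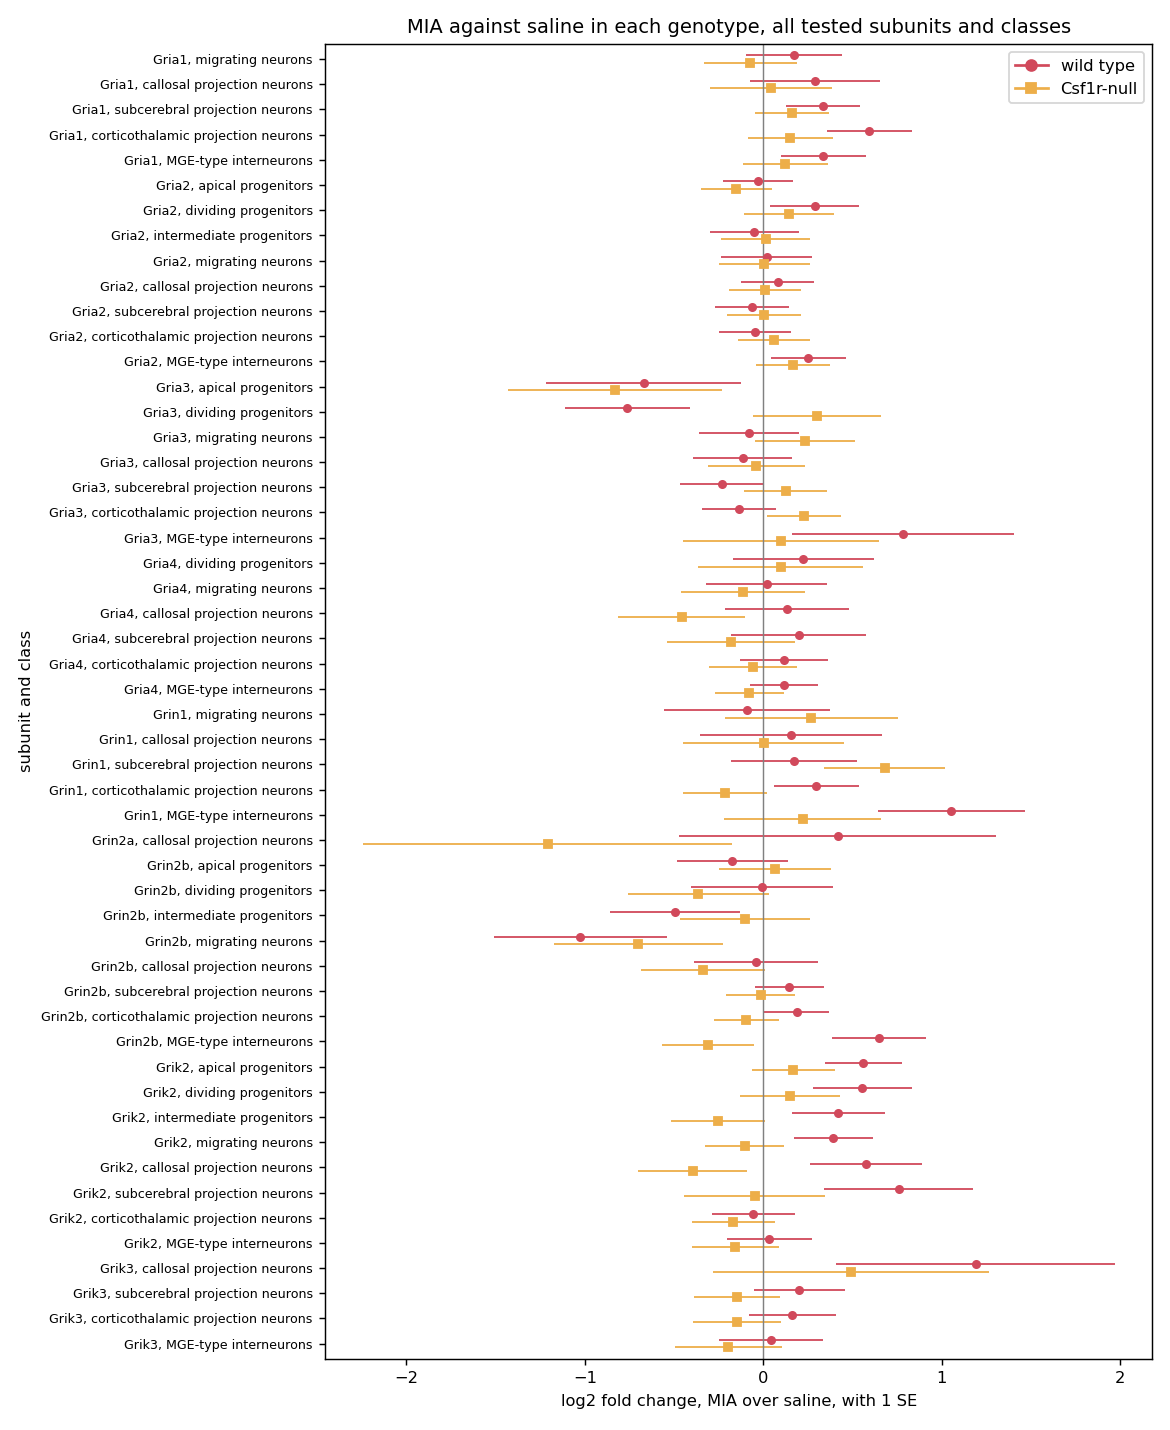
Log2 fold change of MIA over saline with 1 SE for the 52 combinations of subunit and class that passed the filter, in wild type and in Csf1r-null. Values lie between -1.03 and 1.19 in wild type and between -1.21 and 0.68 in Csf1r-null, and none passed the test after adjustment.

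Grin3a did not pass the filter in any class and has no group test. For the 9 other genes, the difference between MIA and saline did not pass the test in the class where each was highest. The values in these classes are given with no leave-one-out range. Gria2 in callosal neurons differed by 0.08 ± 0.20 (log2, SE) in wild type and 0.01 ± 0.20 in Csf1r-null. In MGE-type interneurons Gria1 differed by 0.34 ± 0.24 and 0.12 ± 0.24, Gria4 by 0.11 ± 0.19 and -0.08 ± 0.19, and Grik2 by 0.03 ± 0.24 and -0.16 ± 0.24. In corticothalamic neurons Gria3 differed by -0.14 ± 0.21 and 0.23 ± 0.21, Grin2b by 0.19 ± 0.18 and -0.10 ± 0.18, and Grik3 by 0.16 ± 0.25 and -0.15 ± 0.24. Grin2a in callosal neurons was too sparse to place, at 0.42 ± 0.89 and -1.21 ± 1.03. After saline, Csf1r-null minus wild type was 0.16 ± 0.20 for Gria2, 0.21 ± 0.24 for Gria1, 0.12 ± 0.19 for Gria4 and 0.25 ± 0.18 for Grin2b in the same classes. This difference is not given here for the remaining genes.

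Grin2b in MGE-type interneurons had the lowest unadjusted p of the receptor genes. Its level was 233 and 226 CPM in the wild-type saline libraries, 398 and 343 in the wild-type MIA libraries, 537 and 313 in the Csf1r-null saline libraries and 443 and 247 in the Csf1r-null MIA libraries (replicates 1 and 2). Both wild-type saline libraries were below the other 6, and the Csf1r-null groups overlapped each other. In wild type the log2 difference between MIA and saline was 0.65 ± 0.26 (edgeR adjusted p = 0.557), and 0.56 to 0.72 with each library left out. In Csf1r-null it was -0.31 ± 0.26, and -0.70 to 0.06 with each library left out, so its sign depended on 1 library. The interaction was 0.96 ± 0.37 (adjusted p = 0.993), but 0.61 without Csf1r-null saline 1 and 1.37 without Csf1r-null MIA 1. Without both libraries that go against their label it was 1.30, and the difference in Csf1r-null -0.57. Csf1r-null minus wild type after saline was 0.87 ± 0.26 (adjusted p = 0.428).

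Libraries with the same replicate number deviated together, so the replicate number was also entered as a block. With the block the difference of Grin2b between genotypes after saline passed the test (0.87 ± 0.19, edgeR adjusted p = 0.00648), as did 1.27% of the genes tested in the class. It was the only one of the 52 called in the 5 comparisons with the block, beside 0.31% of all combinations for genotype after saline, 0.52% for MIA in wild type, 0.00633% for genotype after MIA and 0% in the others. The MIA difference in wild type did not pass (adjusted p = 0.0559), nor did the interaction (adjusted p = 0.247). The blocked call was lost without wild-type saline 1 (log2 difference 0.60) and without Csf1r-null saline 1 (0.68). It was also lost without both libraries that go against their label (1.00). It was kept without any other single library (0.87 to 1.10), among them each of those that go against their label. All of these fits leave a group with 1 library. Without the block the log2 difference was 0.53 without Csf1r-null saline 1 (adjusted p = 0.951), 1.16 without the library labelled Csf1r-null saline 2, and without both libraries that go against their label it was 1.15 (adjusted p = 0.444). Wild-type saline 1 also carried 116 CPM of the 10 striatal markers in its MGE-type class, with 5 of 10 found, against 0 to 13.7 CPM and at most 3 found in the other libraries, and their part in the result was not tested. The 6 markers of interneurons of the caudal ganglionic eminence (CGE), of which 3 to 6 had a UMI in each library, varied as well. Summed over that class they stood at 132 and 156 CPM in wild-type saline, 198 and 278 in wild-type MIA, 278 and 133 in Csf1r-null saline and 283 and 165 in Csf1r-null MIA (replicates 1 and 2). Both wild-type saline libraries were below both wild-type MIA libraries, and the Csf1r-null groups overlapped. The 7 MGE markers stood at 3498 to 4875 CPM, and the part of either list in the level of Grin2b was not tested.

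Grin1 in MGE-type interneurons also had an unadjusted p under 0.05 for MIA in wild type. It held 23.7 and 13.4 CPM after saline and 34.4 and 53.9 after MIA in wild type, from 6 to 28 UMIs per library, and 26.0 and 25.1 against 32.4 and 27.4 in Csf1r-null. The groups did not overlap in either genotype. The CGE markers of the class, at 132 and 156 CPM in wild-type saline and 198 and 278 in wild-type MIA, did not overlap either, and their part in the level of Grin1 was not tested. The log2 differences were 1.05 ± 0.41 (edgeR adjusted p = 0.544) and 0.22 ± 0.44, with ranges of 0.73 to 1.57 and 0.17 to 0.27 over the fits without 1 library. The first was 0.74 without both libraries that go against their label. Gria1 in corticothalamic neurons held 58.2 and 69.9 CPM after saline and 112 and 86.2 after MIA in wild type, and 74.1 and 83.7 against 109 and 66.7 in Csf1r-null. The wild-type groups did not overlap and the Csf1r-null groups did, with log2 differences of 0.59 ± 0.24 (adjusted p = 1) and 0.15 ± 0.24, and ranges of 0.40 to 0.82 and -0.18 to 0.40 without 1 library. Without wild-type saline 1 the wild-type difference of Gria1 was 0.40. Wild-type MIA 1 gave 759 of the 4215 nuclei of 1 cluster of the corticothalamic class, against 208 in the lowest library. For the other cluster of the class it gave 334 of 2163, against 232 in the lowest library. The part of this make-up was not tested.

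Grik2 in apical progenitors held 114 and 99.6 CPM after saline and 158 and 174 after MIA in wild type, and 126 and 98.4 against 134 and 122 in Csf1r-null. The wild-type groups did not overlap, at a log2 difference of 0.56 ± 0.22 (edgeR adjusted p = 0.496), beside 0.17 ± 0.23 in Csf1r-null, with ranges of 0.47 to 0.66 and 0.03 to 0.34 without 1 library. In callosal neurons Grik2 held 22.4 and 12.2 CPM in wild-type saline, 29.0 and 23.3 in wild-type MIA, 25.1 and 32.3 in Csf1r-null saline and 24.1 and 18.7 in Csf1r-null MIA. MIA was higher than saline in wild type and lower in Csf1r-null. In Csf1r-null most of the difference lay in replicate 2, whose saline library goes against its label. The interaction was 0.97 ± 0.44 (edgeR adjusted p = 0.997), 0.65 to 1.37 without 1 library. These levels came from 23 to 67 UMIs per library. In replicate 1 Grik2 in callosal neurons was at 71.5% of the level in barcodes with 1 to 100 UMIs. Csf1r-null minus wild type after saline was 0.71 ± 0.31 there (adjusted p = 0.884), 0.38 to 1.10 without 1 library, and 0.48 without both libraries that go against their label. Over the 8 classes the MIA difference of Grik2 in wild type ranged from -0.06 to 0.76 on the log2 scale, and the classes come from the same libraries.

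Gria3 in dividing progenitors had the opposite sign. It held 37.6 and 40.7 CPM after saline and 32.6 and 13.3 after MIA in wild type, and 37.1 and 34.3 against 47.7 and 41.0 in Csf1r-null. The wild-type MIA libraries were both below the saline ones, and the lower of them, from 11 UMIs, was the library labelled wild-type MIA 2. The log2 difference in wild type was -0.76 ± 0.35 (edgeR adjusted p = 0.568), and after MIA Csf1r-null exceeded wild type by 0.91 ± 0.36 (adjusted p = 1). Without both libraries that go against their label the wild-type difference of Gria3 was -0.34 and the difference after MIA 0.48. The wild-type difference was -0.34 without the library labelled wild-type MIA 2 alone and -1.56 without wild-type MIA 1, and the difference after MIA ranged from 0.48 to 1.71. Wild-type saline 1 gave 278 of the 1027 nuclei of 1 of the 3 clusters that form the dividing class, against 68 in the lowest library, and the part of this make-up was not tested. Without it the wild-type difference was -0.91.

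Of the receptor genes, the largest difference between genotypes after saline was that of Gria3 in MGE-type interneurons, chosen after its values were seen. Gria3 held 10.2 and 8.93 CPM in wild-type saline, 14.7 and 21.6 in wild-type MIA, 29.7 and 16.0 in Csf1r-null saline and 35.8 and 12.47 in Csf1r-null MIA. The saline groups did not overlap, and the log2 difference was 1.23 ± 0.61 (unadjusted p = 0.0596, edgeR adjusted p = 0.619), 0.79 to 1.53 without 1 library. These levels came from 9 and 4 UMIs in wild-type saline and 16 and 7 in Csf1r-null saline. In replicate 1 the class held 31.1% of the Gria3 level of barcodes with 1 to 100 UMIs. The CGE markers of the class stood at 132 and 156 CPM in wild-type saline and 278 and 133 in Csf1r-null saline. Their part in the level of Gria3 was not tested.

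**Figure D5:**
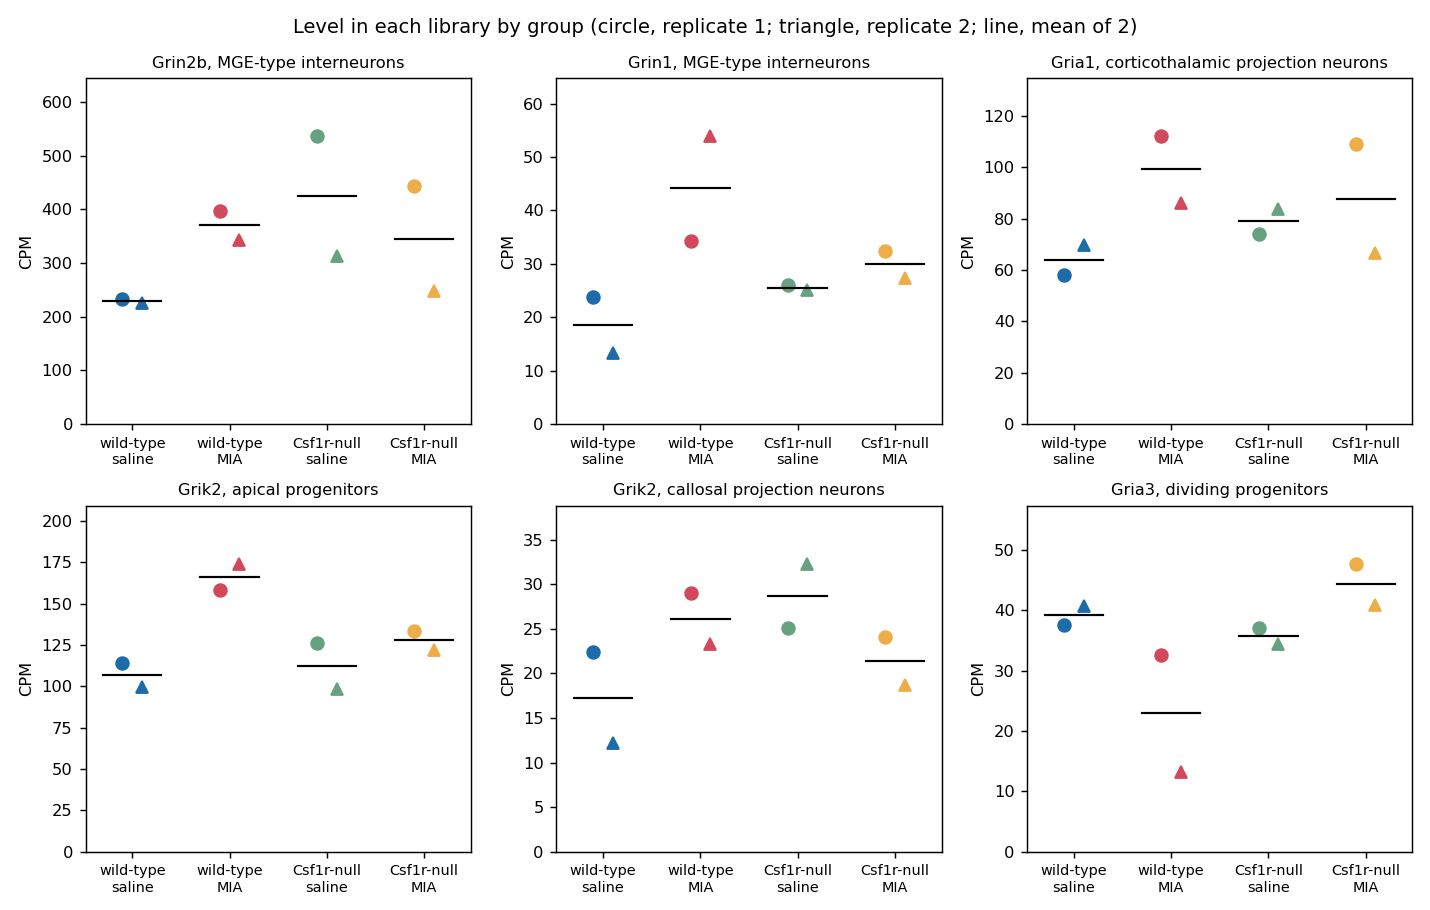
CPM in each library by group, with a marker for each replicate number and a line at the mean of 2, for combinations of subunit and class with an unadjusted p under 0.05. In MGE-type interneurons Grin2b is at 233 and 226 CPM in wild-type saline and at 247 CPM or more in the 6 other libraries.

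Without the replicate block the partner lists gave no call between groups either. Of 269 combinations of class with a gene of the 6 other lists, edgeR called 0 in each of the 5 comparisons. At an unadjusted p under 0.05, scaffold genes gave 10 of 127 for MIA in wild type and 11 of 127 for genotype after saline, and auxiliary subunits 7 and 3 of 77, beside 6.31% and 5.91% of all combinations. Metabotropic receptors gave 3 of 9 for MIA in Csf1r-null, beside 1.29%, all of them lower after MIA: Grm5 in callosal and subcerebral neurons and Grm3 in corticothalamic neurons. Other ionotropic subunits gave 2 of 11 for the interaction, beside 2.91%. For MIA in wild type RNA editing enzymes gave 2 of 18 and glutamate transporters 0 of 27, and the lists and comparisons not given here had 0 to 5 such combinations each. With the replicate block 3 scaffold combinations passed for MIA in wild type and 1 for genotype after saline, all of them Dlgap1 or Dlgap2, beside 0.52% and 0.31% of all combinations.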

How the data were processed

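Nuclei of 8 cortex libraries (10x Genomics 3' chemistry) were analysed, and the microglia libraries of the series were not analysed here. The authors deposited UMI counts per gene and barcode, and the submitters' processing notes name Cell Ranger 3.1.0 and mm10. The file headers name 3.1.0 in replicate 1 and 6.0.1 in replicate 2. The deposited files of replicate 1 list all barcodes and those of replicate 2 called cells, with other gene lists, so the 30406 shared genes were used. Whether intronic reads or strand were used in the counting is not given in the sources used here.

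Barcodes under 500 UMIs or 200 genes were dropped, Scrublet doublets were removed at 0.8% per 1000 nuclei, and clusters were made with scanpy 1.11.5 and leidenalg 0.10.2 (2000 variable genes, 30 components, 20 neighbors, resolution 1) and named from fixed markers. Counts were summed per library and class and tested with edgeR 4.0.16 in R 4.3.3 (TMM, filterByExpr, quasi-likelihood F test, Benjamini-Hochberg over all genes of a class), with DESeq2 1.42.0 as an alternative. All 8 libraries entered each fit, and differences between classes had library as a block. CPM is UMIs per 1000000 UMIs of the class. The NEBULA model of the study was not used here.

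Same-numbered libraries deviated together in every class (r = 0.251 to 0.558), so the number was tried as a block, and it also stands for the software version and barcode filter. The genes and lists were chosen with earlier results of these data known. All 10 genes are described, and in groups the 9 that passed the filter, at their highest class and wherever the unadjusted p was under 0.05 for MIA or the interaction. The genotype difference after saline is given for part of these genes only. List genes are named where most abundant or past the test.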

Additional observations from a re-analysis of the deposited data

Results flagged for a closer look

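In 63 sets of 8 library values, 1 for each gene and class with enough UMIs, 3 had a library far from the other 7, and chance gives such a library in about 1 of 20 sets. Gria3 in dividing progenitors was at 13.3 CPM (11 UMIs) in the library labelled wild-type MIA 2, against 32.6 to 47.7 CPM in the others. Gria4 in the same class and library was at 32.5 CPM (27 UMIs), against 15.3 to 20.4 CPM. Grin3a in callosal neurons was at 7.05 CPM (16 UMIs) in Csf1r-null saline 1, against 0 to 3.08 CPM.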

How the results depend on the processing

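Leaving out each library, DESeq2 size factors, the DESeq2 Wald test, no filter on low counts, at least 1000 UMIs per nucleus, doublets kept and leaving out both libraries that go against their label gave 0 receptor genes in each of the 5 comparisons of groups. With the replicate block the count for genotype after saline was 1 (Grin2b in MGE-type interneurons), and the block changed no other call of a receptor gene. The count of class differences was 194 to 197 with each library left out, 192 with no replicate block (library left out of the model), and 222 with no filter, of 280. The level of each gene in its highest class moved by less than its spread in all 100 alternatives, and the levels in other classes were not recomputed. The share of Gria2 in MGE-type interneurons was 52.8% with doublets kept, 27.5% per kb of exons and 72.9% per kb of span, and 48.0% to 49.3% with each library left out. In corticothalamic neurons the share of Grin2b was 93.0% and 69.1% on these scales and the share of Grik3 81.1% and 90.0%. These scales and the leave-outs with the block were chosen after seeing the data. Depth limits Grin2a and Grin3a, and 2 libraries per group limit every comparison of groups.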

Other observations

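In classes with too few nuclei for a test, values are pooled over libraries with exact 95% Poisson intervals, which cover counting error only. Cajal-Retzius cells (139 nuclei), the early neurons of the marginal zone, had the highest pooled Grin1 (98.2 CPM, 73.4 to 129, 52 UMIs) of all classes, and held 37.8 CPM of Grin3a (23.1 to 58.4, 20 UMIs). Of these Grin3a UMIs 11 came from Csf1r-null MIA 1, and without it the level was 21.3 CPM (9.75 to 40.5, 9 UMIs). They also held 145 CPM of Gria4 (115 to 181.8). Nuclei with striatal markers (840) held 109 CPM of Grik3 (93.6 to 125) and 45.0 of Gria1 (35.5 to 56.2), and 706 of them came from wild-type saline 1. Without that library Grik3 was at 47.3 CPM (22.7 to 87.0, 10 UMIs) and Gria1 at 75.7 CPM (43.3 to 123, 16 UMIs). Vascular cells (58 nuclei) held 55.4 CPM of Grin2a (23.9 to 109) from 8 UMIs and 34.7 CPM of Gria2. Of these Grin2a UMIs 5 came from the library labelled wild-type MIA 2, and without it Grin2a was at 29.1 CPM (6.01 to 85.1, 3 UMIs). These leave-outs were chosen after seeing the data. The 29 microglia nuclei held 1 UMI of Gria2 and 1 of Grin2b.

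A cluster of 825 nuclei that no marker list named, led by Kcnip4, Unc5c and Abca8a, held 719 CPM of Grin2b (688 to 751), 181.7 of Gria3 (167 to 198) and 117 of Gria1 (105 to 131). Both kainate receptor genes were found in it, at 142 CPM of Grik2 (129 to 157) and 125 of Grik3 (113 to 139). Another unnamed cluster (2735 nuclei) held 3556 CPM of Gria2 (3498 to 3615) and 486 of Grin2b (465 to 509).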
